A study of Mus musculus with 75 samples.

Results

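The 32 genes described here as p53 targets are Trp53, which encodes the transcription factor p53, and direct or well-established targets of p53. Those targets include Mdm2, which encodes its inhibitor, and Trp53 is counted as a member throughout. The members were chosen by symbol from 52535 entries in the table of receptor knockouts, 52535 in the table of receptor overexpression and 52636 in the table of enhancer deletions, and all 32 were found in each table. Mouse E14 embryonic stem cells (ESCs) had been kept in LIF with inhibitors of MEK and GSK (2i), and every RNA library comes from cells 24 h after LIF and 2i were withdrawn and 2 µM retinoic acid (RA) was added. RA binds heterodimers of RAR and RXR receptors, and Cyp26 enzymes degrade RA. The 23 RNA-seq libraries ask how loss or excess of RARα and RXRα, and loss of either of 2 enhancers named for Cyp26, change the transcriptome of RA-treated cells. No library of untreated cells is compared here, so nothing below is an effect of RA itself.

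In the knockout table, the labels give Rarα-KO cells as a knockout of Rara, Rxrα-KO cells of Rxra and RARX-DKO cells of both, with WT-RARX as wild type (2 libraries each). In the overexpression table, Rarα-OE and Rxrα-OE cells overexpress 1 receptor each and V-OE cells carry the vector (2 libraries each). In the enhancer table, Cyp26-E1-KO and Cyp26-E2-KO cells are taken to lack 1 enhancer each, with WT-Cyp26 as wild type (3 libraries each). The labels do not say how many clones stand behind a group, which promoter drives the transgenes or where the deletions end, and nothing says that replicates were separate cultures, so p-values measure only the spread between these samples. The mutant columns of the enhancer table are coded, and their match to Cyp26-E1-KO and Cyp26-E2-KO through the codes of other deposited tables is unsure. The RNA titles of the Cyp26-E2-KO libraries also do not hold the word KO, so that these cells carry the deletion is unsure too.

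p53 is a stress-activated transcription factor that binds DNA as a tetramer over paired copies of a short decamer motif. Its targets halt the cell cycle, promote apoptosis, repair DNA and adjust metabolism, and Mdm2, a ubiquitin ligase that marks p53 for degradation, closes a negative feedback loop. ESCs contain abundant p53, and in mouse ESCs p53 is known to repress Nanog when DNA damage or differentiation sets in.

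Promoter windows of 250 bases before to 50 bases after the annotated start (RefSeq, GRCm38.p6) were at hand for 24 members, which leaves out Trp53inp1, Pmaip1, Zmat3, Ddb2, Rrm2b, Tnfrsf10b, Perp and Xpc. The p53 decamer, which reads the same on both strands as a pattern, was found in windows of 10 of these 24 genes (41.7%), against 2582 of all 27025 genes with a window (9.55%). These were Trp53, Cdkn1a, Mdm2, Ccng1, Bax, Sesn1, Aen, Polk, Ei24 and Rps27l. A match is a description of the letters and no evidence of binding. The stretches below are those of the p53 gene, of its inhibitor and of 4 targets whose levels differed in several comparisons, each printed 5′ to 3′ on the strand of its gene with the decamer in capitals. They lie at chr11:69580254-69580323 (plus strand, Trp53), chr10:117710905-117710974 (minus strand, Mdm2), chr17:29090876-29090967 (plus strand, Cdkn1a), chr11:40755432-40755501 (minus strand, Ccng1), chr10:41887236-41887305 (plus strand, Sesn1) and chr9:36797305-36797374 (minus strand, Ei24). With no mismatch to the pattern allowed, the Cdkn1a stretch held a pair of decamers 12 bases apart, and each of the other 5 held 1.
Trp53: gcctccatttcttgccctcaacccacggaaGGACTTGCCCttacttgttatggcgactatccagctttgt
Mdm2: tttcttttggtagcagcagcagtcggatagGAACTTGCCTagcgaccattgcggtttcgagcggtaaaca
Cdkn1a: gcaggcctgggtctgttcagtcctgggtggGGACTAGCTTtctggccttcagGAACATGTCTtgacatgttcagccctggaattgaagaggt
Ccng1: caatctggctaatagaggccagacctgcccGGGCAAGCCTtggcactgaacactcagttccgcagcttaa
Sesn1: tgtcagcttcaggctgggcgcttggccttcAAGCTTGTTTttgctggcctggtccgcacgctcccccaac
Ei24: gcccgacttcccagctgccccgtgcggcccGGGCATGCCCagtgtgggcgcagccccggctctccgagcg

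Total counts per library ran over 7408691 to 13052102 in the knockout table, 7835519 to 11453063 in the overexpression table and 28397794 to 33601996 in the enhancer table. Levels are given in CPM, the field's unit of read counts relative to library size, after TMM scaling within a table, and were not tested across tables. Rara stood at 5.34 and 4.36 CPM in Rarα-KO and 5.55 and 6.51 CPM in RARX-DKO cells, against 99.9 and 108 CPM in WT-RARX cells. Rxra stood at 18.3 and 16.1 CPM in Rxrα-KO and 13.6 and 27.5 CPM in RARX-DKO cells, against 38.2 and 45.9 CPM in WT-RARX cells, so part of its RNA remained in both, most in RARX-DKO replicate 2. Rara was at 104 and 111 CPM in Rarα-OE cells against 51.5 and 52.3 CPM in V-OE cells, and Rxra was at 202 and 204 CPM in Rxrα-OE cells against 45.5 and 42.8 CPM in V-OE cells. Cyp26a1 stood at 55.8, 33.7 and 58.7 CPM in Cyp26-E1-KO cells and at 386, 363 and 391 CPM in Cyp26-E2-KO cells, against 378, 368 and 385 CPM in WT-Cyp26 cells. Replicate 2 of Cyp26-E1-KO stood apart from its replicates: their counts differed with 45.8 and 51.4 times the variance that counting alone gives, against 5.58 to 9.64 times in the other pairs of that table. The same ratio was 7.997 to 14.2 in the knockout table and 1.89 to 2.27 in the overexpression table.

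Most members were expressed in all groups. Per kilobase of exon, the highest levels in wild-type or vector cells were those of Rps27l, a ribosomal protein relative, with 295 CPM per kb in WT-RARX, 264 in V-OE and 178 in WT-Cyp26 cells. Reads of Rps27l may be shared with its close relative Rps27. Trp53 came next with 108, 105 and 107 CPM per kb in the same 3 groups, and Cdkn1a stood at 5.64, 9.47 and 4.42 CPM per kb. Fas, the death receptor, was at the bottom with 0.104, 0.0786 and 0.0695 CPM per kb, and too low to be tested in the knockout and enhancer tables, where no library held more than 16 of its reads. So 31 members were tested in the knockout table, 32 in the overexpression table and 31 in the enhancer table. In mm10, Trp53 lies at chr11:69580359-69591873, Mdm2 at chr10:117688875-117710758 and Cdkn1a at chr17:29090976-29100727. Exons of Bax, Cdkn1a, Rrm2b, Ei24, Tigar and Ephx1 overlap those of another annotated gene over 3.34% to 12.2% of their bases, and those of Ddb2 over 23.8%, so part of their counts is uncertain; strandedness is not given in the sources used here. In bulk RNA, a lower level may mean fewer cells that express a gene or less RNA per cell, and these cannot be told apart.

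**Figure D1:**
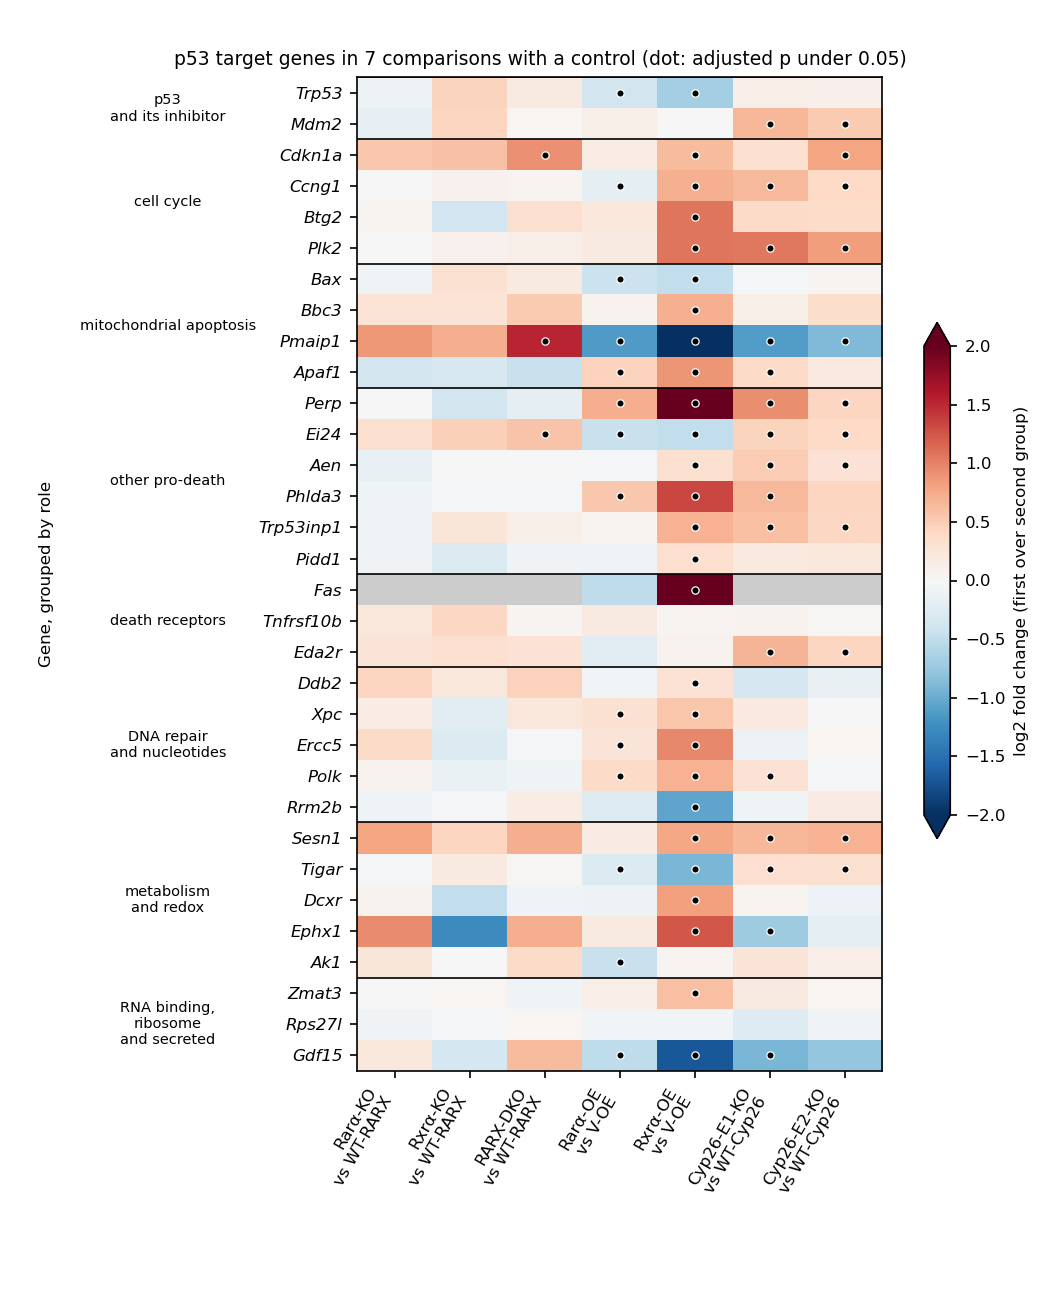
Log2 fold changes of the 32 p53 target genes (rows, ordered by role) in the 7 comparisons with a wild-type or vector control (columns). Red is higher and blue lower in the mutant or overexpressing cells, colours stop at 2 in either direction, dots mark an adjusted p under 0.05, and grey cells were not tested; the dots lie mainly in the overexpression and enhancer columns.

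In the receptor knockouts, few p53 targets moved. Cdkn1a, the p21 inhibitor of cyclin-dependent kinases, Pmaip1, the pro-apoptotic protein Noxa, and Ei24, an endoplasmic reticulum protein induced by p53, were higher in RARX-DKO than in WT-RARX cells, and no member was lower. These 3 calls make 9.68% of the 31 members tested, against 2.24% of all 16445 genes tested in that comparison (1.05% higher and 1.19% lower; edgeR quasi-likelihood test, Benjamini-Hochberg adjusted p under 0.05). The median log2 fold change was 0.12 over the members and 0.01 over all genes. In the single knockouts no member passed: in Rarα-KO cells 0 of 31 were called by edgeR, with 8 at an unadjusted p under 0.05 and 1 by DESeq2, against 0.645% of all genes (0.389% higher and 0.255% lower). In Rxrα-KO cells 0 were called, with 7 at an unadjusted p under 0.05 and 2 by DESeq2, against 2.47% of all genes (1.28% higher and 1.2% lower). The 3 comparisons share the WT-RARX libraries.

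Cdkn1a stood at 28.9 and 29.5 CPM in Rarα-KO, 26.0 and 34.2 CPM in Rxrα-KO, 38.9 and 36.5 CPM in RARX-DKO, against 17.3 and 22.8 CPM in WT-RARX cells. All 6 mutant libraries lay above both wild-type libraries, and the RARX-DKO libraries were the highest. Its log2 fold change was 0.54 ± 0.20 (SE, adjusted p = 0.3) in Rarα-KO, 0.59 (adjusted p = 0.151) in Rxrα-KO and 0.91 ± 0.20 (adjusted p = 0.0302) in RARX-DKO cells. Pmaip1 stood at 19.5 and 19.2 CPM in Rarα-KO, 19.999 and 14.8 CPM in Rxrα-KO, 37.2 and 23.7 CPM in RARX-DKO, against 13.0 and 8.28 CPM in WT-RARX cells. Again no mutant library fell into the wild-type range, while the RARX-DKO replicates differed widely, and the log2 fold change in RARX-DKO cells was 1.53 ± 0.28 (adjusted p = 0.0117). Ei24 stood at 162 and 166 CPM in Rarα-KO, 180 and 189 CPM in Rxrα-KO, 191 and 201 CPM in RARX-DKO, against 132 and 132 CPM in WT-RARX cells. Replicates of Ei24 lay close together, and its log2 fold change in RARX-DKO cells was 0.57 ± 0.13 (adjusted p = 0.0341). None of the 31 members passed when WT-RARX replicate 1, WT-RARX replicate 2 or RARX-DKO replicate 1 was left out, and 2 passed without RARX-DKO replicate 2.

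Trp53 itself was at 437 and 380 CPM in Rarα-KO, 567 and 614 CPM in Rxrα-KO, 468 and 522 CPM in RARX-DKO, against 428 and 444 CPM in WT-RARX cells. Only the Rxrα-KO and RARX-DKO libraries all lay above the wild type, and neither difference passed the test (log2 fold change 0.44 ± 0.13, adjusted p = 0.108, and 0.18 ± 0.13, adjusted p = 0.59). Mdm2 was at 120 and 107 CPM in Rarα-KO, 164 and 178 CPM in Rxrα-KO, 119 and 141 CPM in RARX-DKO, against 141 and 112 CPM in WT-RARX cells. Between the single knockouts both genes differed: Trp53 was higher in Rxrα-KO than in Rarα-KO cells by 0.53 ± 0.13 on the log2 scale (adjusted p = 0.0344) and Mdm2 by 0.59 ± 0.15 (adjusted p = 0.0425). Ephx1, the microsomal epoxide hydrolase that detoxifies epoxides, stood at 2.73 and 4.31 CPM in Rxrα-KO against 13.9 and 18.8 CPM in Rarα-KO cells, a log2 fold change of -2.21 ± 0.41 (adjusted p = 0.0102). These 3 are the calls among 31 members, against 5.38% of all genes (2.19% higher and 3.19% lower). When libraries were scaled by their totals, Trp53 and Mdm2 were no longer called (0 members higher and 2 lower), and the median gene moved by -0.109 on the log2 scale. At most 1 member was called when any 1 library of this pair was left out.

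Ephx1 was also the single member that differed between RARX-DKO and Rxrα-KO cells (log2 fold change 2.00 ± 0.41, adjusted p = 0.0212, against 3.5% of all genes called, 2.01% higher and 1.48% lower). Its levels in RARX-DKO were 19.9 and 8.14 CPM, against 2.73 and 4.31 CPM in Rxrα-KO cells, so the RARX-DKO replicates were far apart. Counts of called members in this pair ran over 0 to 2 when 1 library at a time was left out, with 0 and 2 both reached. Between RARX-DKO and Rarα-KO cells 0 of 31 members were called by edgeR, with 2 at an unadjusted p under 0.05 and 0 by DESeq2, against 0.0122% of all genes (0% higher and 0.0122% lower). Sesn1, a sestrin that restrains mTOR signalling, was at 50.5 and 59.9 CPM in Rarα-KO, 39.2 and 47.3 CPM in Rxrα-KO, 59.2 and 46.4 CPM in RARX-DKO, against 30.2 and 33.6 CPM in WT-RARX cells. It came close to the threshold in Rarα-KO (log2 fold change 0.79 ± 0.18, adjusted p = 0.0672) and RARX-DKO cells (0.73 ± 0.18, adjusted p = 0.0508). Genes within 10 Mb of Sesn1 on chromosome 10 had median log2 fold changes of 0.77 in Rarα-KO, 0.57 in Rxrα-KO and 0.75 in RARX-DKO cells, close to those of Sesn1 itself. The summed level of 10 ESC markers was 6992 to 8579 CPM in Rarα-KO, 7162 to 7311 CPM in Rxrα-KO and 7756 to 8036 CPM in RARX-DKO, against 5967 to 6097 CPM in WT-RARX cells. Of the 10, 1 was called higher in Rarα-KO, 3 in Rxrα-KO and 2 in RARX-DKO cells, against 0.389%, 1.28% and 1.05% of all genes. No ESC marker was called lower. Nanog lay below the wild type in Rxrα-KO cells, at 350 and 324 CPM against 468 and 411 CPM in WT-RARX cells. It stood at 997 and 840 CPM in Rarα-KO and 833 and 557 CPM in RARX-DKO cells. The summed level of 12 extraembryonic endoderm markers was 497 to 555 CPM in Rarα-KO, 792 to 881 CPM in Rxrα-KO and 487 to 525 CPM in RARX-DKO, against 580 to 623 CPM in WT-RARX cells. Of these 12, 7 were called lower in RARX-DKO cells, against 1.19% of all genes, with a median log2 fold change of -1.55. In Rarα-KO cells 1 was called lower and in Rxrα-KO cells 1 higher, against 0.255% and 1.28% of all genes. The part of this shift in cell state in the differences of p53 targets was not tested.

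**Figure D2:**
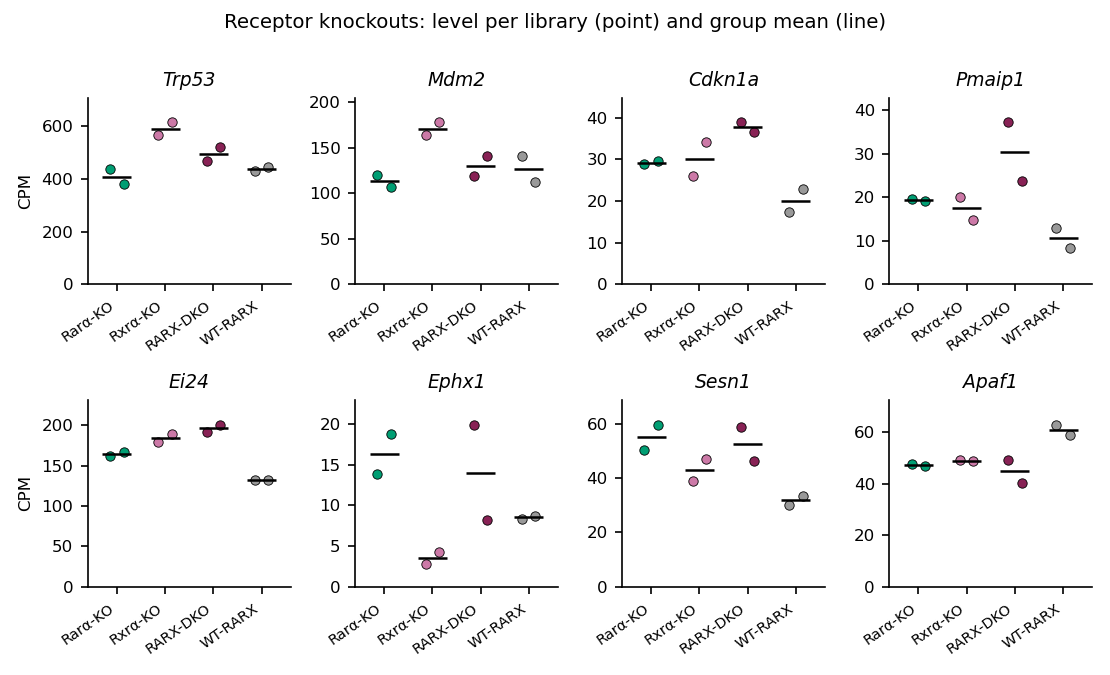
Levels (CPM, linear axis from 0) of 8 p53 target genes in the knockout table, with a point per library and a line at the group mean (2 libraries a group). Cdkn1a, Pmaip1 and Ei24 are highest in RARX-DKO cells, Trp53 and Mdm2 in Rxrα-KO cells, and Ephx1 is lowest in Rxrα-KO cells.

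Overexpression of RXRα went with the widest changes among p53 targets. In Rxrα-OE cells 20 of 32 members were higher and 7 lower than in V-OE cells, which is 84.4% of the members against 60.2% of all 16914 genes tested (31% higher and 29.2% lower). The median log2 fold change was 0.58 over the members and 0.00 over all genes. Fas passed the filter on low counts only through its reads in Rxrα-OE cells and so had to differ. Without Fas the counts were 19 higher and 7 lower of 31, with a median of 0.56. In Rarα-OE cells 6 members were higher and 8 lower than in V-OE cells, which is 43.8% of the members against 28.5% of all genes (14.7% higher and 13.9% lower), with a median of 0.01 against 0.00. With scaling by library totals the split was 9 higher and 8 lower. Both comparisons share the V-OE libraries.

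In Rxrα-OE cells Trp53 RNA was lower while most of its targets were higher. Trp53 stood at 318 and 341 CPM in Rarα-OE and 274 and 256 CPM in Rxrα-OE, against 429 and 417 CPM in V-OE cells. The 3 groups did not overlap, and Trp53 fell by 0.36 ± 0.04 on the log2 scale in Rarα-OE (adjusted p = 2.86e-09) and by 0.68 ± 0.05 in Rxrα-OE cells (adjusted p = 2.35e-19). Mdm2 stood at 160 and 155 CPM in Rarα-OE and 150 and 145 CPM in Rxrα-OE, against 142 and 149 CPM in V-OE cells. Its Rxrα-OE and V-OE libraries overlapped, and neither difference from V-OE passed the test (adjusted p = 0.111 in Rarα-OE and 0.847 in Rxrα-OE).

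All 4 cell-cycle members were higher in Rxrα-OE cells, where 31% of all genes were higher and 29.2% lower. Cdkn1a stood at 38.2 and 36.2 CPM in Rarα-OE and 53.1 and 51.0 CPM in Rxrα-OE, against 34.3 and 33.0 CPM in V-OE cells. Its rise in Rxrα-OE cells was 0.63 ± 0.09 on the log2 scale (adjusted p = 2.67e-08), and the Rarα-OE libraries lay just above V-OE without passing the test (0.15, adjusted p = 0.26). Ccng1, which encodes cyclin G1, stood at 212 and 210 CPM in Rarα-OE and 388 and 395 CPM in Rxrα-OE, against 234 and 243 CPM in V-OE cells. It thus lay below V-OE in Rarα-OE cells (-0.17, adjusted p = 0.00273) and above it in Rxrα-OE cells (0.72). Plk2, a polo-like kinase, and Btg2, an antiproliferative protein that promotes shortening of mRNA tails, were higher in Rxrα-OE cells by 1.07 and 1.08, and neither passed in Rarα-OE cells.

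Members that act at mitochondria were split. Pmaip1 stood at 14.2 and 16.5 CPM in Rarα-OE and 8.19 and 8.61 CPM in Rxrα-OE, against 32.8 and 34.3 CPM in V-OE cells. It had the lowest log2 fold change of the members in both comparisons, -1.13 ± 0.13 in Rarα-OE (adjusted p = 6.1e-10) and -1.99 ± 0.14 in Rxrα-OE cells (adjusted p = 3.37e-18), and the 3 groups did not overlap. Bax, which forms pores in the outer mitochondrial membrane, stood at 92.2 and 89.1 CPM in Rarα-OE and 89.2 and 84.6 CPM in Rxrα-OE, against 126 and 118 CPM in V-OE cells, and was lower in both (-0.42 and -0.49). Bbc3, the BH3-only protein Puma, was higher in Rxrα-OE cells by 0.72. Apaf1, the scaffold of the apoptosome, stood at 104 and 109 CPM in Rarα-OE and 149 and 138 CPM in Rxrα-OE, against 78.0 and 76.6 CPM in V-OE cells, and was higher in both (0.46 and 0.89).

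Apart from Fas, the largest rises were those of the pro-death members Perp and Phlda3. Perp, a tetraspan membrane protein of desmosomes that p53 induces during apoptosis, stood at 27.7 and 26.5 CPM in Rarα-OE and 63.9 and 75.0 CPM in Rxrα-OE, against 16.6 and 16.2 CPM in V-OE cells. The groups were ordered without overlap, with log2 fold changes of 0.73 ± 0.12 in Rarα-OE (adjusted p = 1.58e-06) and 2.09 ± 0.10 in Rxrα-OE cells (adjusted p = 6.41e-25). Phlda3, which competes with AKT for membrane lipids, stood at 40.3 and 43.2 CPM in Rarα-OE and 71.1 and 73.4 CPM in Rxrα-OE, against 31.1 and 26.2 CPM in V-OE cells, and was higher in both (0.55 and 1.34 ± 0.09). In Rxrα-OE cells Trp53inp1, a stress protein of apoptosis and autophagy, was higher by 0.70, the nuclease Aen by 0.33 and Pidd1, a scaffold for caspase activation, by 0.33. Ei24 was lower in both, at 164 and 173 CPM in Rarα-OE and 162 and 166 CPM in Rxrα-OE, against 233 and 226 CPM in V-OE cells (-0.45 and -0.49).

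Among the death receptors, Fas had 56 reads in the 2 Rxrα-OE libraries together against 3 in those of V-OE, a ratio of 16.5 after allowing for depth (95% interval 5.36 to 82.4, which covers counting error only). The TRAIL receptor gene Tnfrsf10b and Eda2r, a receptor of an ectodysplasin, did not pass against V-OE in either comparison. Of the 5 DNA repair members, 4 rose and 1 fell in Rxrα-OE cells, against 31% and 29.2% of all genes. The endonuclease gene Ercc5 stood at 50.6 and 50.6 CPM in Rarα-OE and 80.1 and 84.7 CPM in Rxrα-OE, against 41.5 and 43.2 CPM in V-OE cells (0.26 and 0.96). Polk, a translesion polymerase (0.39 and 0.70), and Xpc, a damage sensor of nucleotide excision repair (0.30 and 0.56), were also higher in both. Ddb2, another damage sensor, was higher in Rxrα-OE (0.29, adjusted p = 0.0261) and did not pass in Rarα-OE cells, and its overlap is with Acp2 on the other strand, whose reads may be counted with it. Rrm2b, the p53-inducible subunit of ribonucleotide reductase, stood at 8.82 and 7.41 CPM in Rarα-OE and 4.501 and 4.89 CPM in Rxrα-OE, against 11.1 and 8.65 CPM in V-OE cells, lower by -1.05 in Rxrα-OE cells.

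The metabolic members also differed in direction. In Rxrα-OE cells Sesn1 (0.78), Dcxr, a dicarbonyl and xylulose reductase (0.82), and Ephx1 (1.24) were higher. Tigar, a phosphatase that lowers glycolytic flux, stood at 78.5 and 75.8 CPM in Rarα-OE and 47.7 and 51.9 CPM in Rxrα-OE, against 94.4 and 93.1 CPM in V-OE cells, and was lower in both (-0.28 and -0.91). The adenylate kinase gene Ak1 was lower in Rarα-OE cells (-0.45) and did not pass in Rxrα-OE cells (0.05). Zmat3, an RNA-binding regulator of splicing, was higher in Rxrα-OE cells (0.60). Gdf15, a secreted member of the TGF-beta family, stood at 11.4 and 11.8 CPM in Rarα-OE and 5.08 and 5.15 CPM in Rxrα-OE, against 18.3 and 14.9 CPM in V-OE cells, and was lower in both (-0.51, adjusted p = 0.0166, and -1.69).

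Rxrα-OE and Rarα-OE cells were also compared directly. There 22 of 32 members were higher and 5 lower in Rxrα-OE cells, against 47.2% of all genes called (23.8% higher and 23.3% lower), with a median of 0.42 against -0.00. Without Fas, which had to differ here too, 21 were higher and 5 lower. Trp53 was lower in Rxrα-OE (log2 fold change -0.32 ± 0.05, adjusted p = 5.53e-08), and Pmaip1 (-0.86), Gdf15 (-1.18), Rrm2b (-0.79) and Tigar (-0.63) were lower too. Mdm2 (-0.10, adjusted p = 0.119), Bax (-0.06) and Ei24 (-0.04) did not pass.

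**Figure D3:**
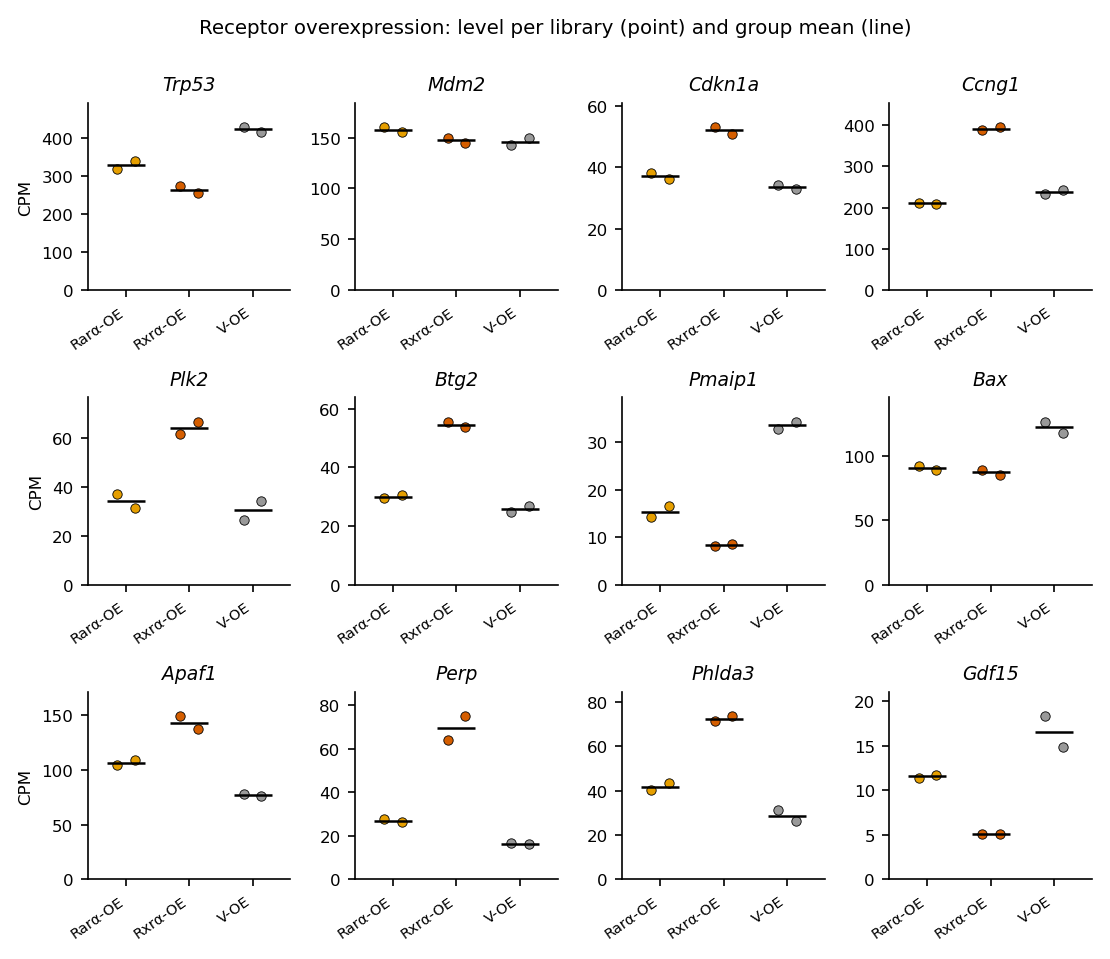
Levels (CPM, linear axis from 0) of 12 p53 target genes in the overexpression table, with a point per library and a line at the group mean (2 libraries a group). Trp53, Pmaip1, Bax and Gdf15 are highest in V-OE cells, while Perp, Phlda3, Plk2, Btg2, Apaf1, Ccng1 and Cdkn1a are highest in Rxrα-OE cells.

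Cell state moved with these groups. The counts of markers below are to be read against all genes, of which 14.7% were higher and 13.9% lower in Rarα-OE cells. In Rxrα-OE cells 31% of all genes were higher and 29.2% lower. The summed level of 10 ESC markers was 7144 to 7173 CPM in Rarα-OE and 2540 to 2574 CPM in Rxrα-OE, against 8498 to 8718 CPM in V-OE cells, and 10 of the 10 fell in Rxrα-OE cells. The sum of 12 extraembryonic endoderm markers was 1393 to 1402 CPM in Rarα-OE and 1788 to 1790 CPM in Rxrα-OE, against 514 to 545 CPM in V-OE cells, and 12 of 12 rose in both. Trophoblast markers summed to 595 to 644 CPM in Rarα-OE and 670 to 700 CPM in Rxrα-OE, against 118 to 119 CPM in V-OE cells. Of the 9 tested, 7 were called higher and 0 lower in Rarα-OE, and 5 higher and 1 lower in Rxrα-OE cells. Markers of 2-cell-like cells summed to 4.01 to 5.37 CPM in Rarα-OE and 36.5 to 37.5 CPM in Rxrα-OE, against 11.8 to 12.3 CPM in V-OE cells. Of 10 fibroblast markers, 3 could be tested, of which 2 were higher in each overexpression and 1 lower in Rxrα-OE cells, with a summed level of 52.3 to 56.1 CPM in Rarα-OE and 39.1 to 40 CPM in Rxrα-OE, against 13.7 to 17 CPM in V-OE cells, with Lum at 0 in all 6 libraries. Most of that sum was Pdgfra, which extraembryonic endoderm also expresses, at 46.5 and 42.7 CPM in Rarα-OE and 32.2 and 29.5 CPM in Rxrα-OE, against 6.75 and 7.53 CPM in V-OE cells. The part of these markers' cells in the differences of p53 targets was not tested.

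Deletion of either Cyp26 enhancer went with higher levels of many p53 targets, Mdm2 among them. In Cyp26-E1-KO cells 13 of 31 members were higher and 3 lower than in WT-Cyp26 cells, which is 51.6% of the members against 25.3% of all 18768 genes tested (13.1% higher and 12.1% lower). In Cyp26-E2-KO cells 11 were higher and 1 lower, which is 38.7% against 17.5% of all genes (9.28% higher and 8.2% lower). The median log2 fold change was 0.25 in Cyp26-E1-KO and 0.19 in Cyp26-E2-KO cells, against -0.01 and 0.00 over all genes. Both comparisons share the WT-Cyp26 libraries. Without Cyp26-E1-KO replicate 2, which stood apart, the counts were 20 higher and 3 lower in Cyp26-E1-KO (33.2% of all genes called) and 17 higher and 2 lower in Cyp26-E2-KO cells (30.9% of all genes), and every call made with that library remained.

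Mdm2 stood at 237, 235 and 236 CPM in Cyp26-E1-KO and 202, 224 and 214 CPM in Cyp26-E2-KO, against 151, 147 and 147 CPM in WT-Cyp26 cells. All mutant libraries lay well above the wild type and the mutants did not overlap each other, with log2 fold changes of 0.67 ± 0.06 (adjusted p = 2.79e-06) in Cyp26-E1-KO and 0.53 ± 0.06 (adjusted p = 5.32e-05) in Cyp26-E2-KO cells. Trp53 stood at 515, 415 and 503 CPM in Cyp26-E1-KO and 462, 459 and 472 CPM in Cyp26-E2-KO, against 440, 431 and 431 CPM in WT-Cyp26 cells. It did not pass in either (0.14 ± 0.08, adjusted p = 0.219, and 0.10, adjusted p = 0.453). Replicate 2 of Cyp26-E1-KO was the one mutant library below the wild type, and without it the log2 fold change of Trp53 in Cyp26-E1-KO cells was 0.23 (adjusted p = 7.24e-05), while that in Cyp26-E2-KO cells, still 0.10, also passed.

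Of the cell-cycle members, Cdkn1a passed in Cyp26-E2-KO cells. Its levels were 21.0, 15.0 and 22.6 CPM in Cyp26-E1-KO and 30.5, 24.2 and 26.4 CPM in Cyp26-E2-KO, against 14.4, 15.6 and 17.1 CPM in WT-Cyp26 cells. The Cyp26-E2-KO libraries were the highest (0.78 ± 0.14, adjusted p = 0.00171); Cyp26-E1-KO overlapped the wild type through replicate 2 (0.31 ± 0.14, adjusted p = 0.13), and without that library its log2 fold change was 0.47 (adjusted p = 0.000704). Plk2 stood at 68.2, 72.1 and 58.5 CPM in Cyp26-E1-KO and 56.7, 58.4 and 56.4 CPM in Cyp26-E2-KO, against 34.2, 30.3 and 31.1 CPM in WT-Cyp26 cells. It had the largest log2 fold change of the members in both, 1.06 ± 0.09 (adjusted p = 1.02e-06) and 0.84 ± 0.09 (adjusted p = 1.92e-05), with no overlap with the wild type. Ccng1 was higher in both as well, at 311, 391 and 310 CPM in Cyp26-E1-KO and 282, 299 and 277 CPM in Cyp26-E2-KO, against 218, 216 and 215 CPM in WT-Cyp26 cells (0.64 and 0.40). Its highest library was Cyp26-E1-KO replicate 2, without which its log2 fold change in Cyp26-E1-KO cells was 0.52. Btg2 did not pass in either, and its Cyp26-E1-KO replicate 2, at 11.4 CPM, lay below the 19.6 and 16.5 CPM of the other two. Without that library Btg2 passed in both (0.57, adjusted p = 0.000159, and 0.37, adjusted p = 0.00488).

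Pmaip1 was the one member called lower in both deletions with all libraries. It stood at 10.8, 11.2 and 12.7 CPM in Cyp26-E1-KO and 14.02, 13.5 and 13.5 CPM in Cyp26-E2-KO, against 27.4, 24.7 and 23.3 CPM in WT-Cyp26 cells. The 3 groups did not overlap (log2 fold change -1.12 ± 0.11, adjusted p = 3.82e-06, and -0.88 ± 0.10, adjusted p = 6.22e-05). Bax stood at 132, 74.4 and 130 CPM in Cyp26-E1-KO and 124, 112 and 124 CPM in Cyp26-E2-KO, against 112, 113 and 121 CPM in WT-Cyp26 cells. Its low value in Cyp26-E1-KO replicate 2 sets the sign in that group: the log2 fold change was -0.04 with that library (adjusted p = 0.917) and 0.19 without it (adjusted p = 0.00904). Apaf1 was higher in Cyp26-E1-KO cells (0.39, adjusted p = 0.00743), and less so without replicate 2 of that group (0.26, adjusted p = 0.00204). It did not pass in Cyp26-E2-KO cells (0.19, adjusted p = 0.182), where it passed without Cyp26-E1-KO replicate 2 (0.20, adjusted p = 0.00876).

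Several pro-death members rose in both. Perp stood at 22.6, 20.7 and 18.0 CPM in Cyp26-E1-KO and 13.4, 16.0 and 13.9 CPM in Cyp26-E2-KO, against 10.8, 10.5 and 10.9 CPM in WT-Cyp26 cells. The groups were ordered without overlap, at 0.93 ± 0.12 (adjusted p = 4.37e-05) and 0.43 (adjusted p = 0.0205) over the wild type. Trp53inp1 (0.60 and 0.41), Aen (0.50 and 0.29), Ei24 (0.45 and 0.40) and the receptor gene Eda2r (0.67 and 0.43) were higher in Cyp26-E1-KO and in Cyp26-E2-KO cells. Without Cyp26-E1-KO replicate 2 the changes in Cyp26-E1-KO cells were smaller for Trp53inp1 (0.43) and Eda2r (0.55). Those of Aen (0.50) and Ei24 (0.49) moved little. Phlda3 stood at 59.3, 36.5 and 46.7 CPM in Cyp26-E1-KO and 45.0, 35.95 and 41.4 CPM in Cyp26-E2-KO, against 29.3, 30.2 and 31.1 CPM in WT-Cyp26 cells. All mutant libraries lay above the wild type, and it passed in Cyp26-E1-KO (0.65, adjusted p = 0.00495) and narrowly missed in Cyp26-E2-KO cells (0.43, adjusted p = 0.0552). Without Cyp26-E1-KO replicate 2 it passed in Cyp26-E2-KO cells too (0.44, adjusted p = 0.000263).

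In metabolism, Sesn1 stood at 58.7, 54.1 and 59.2 CPM in Cyp26-E1-KO and 58.7, 58.2 and 58.5 CPM in Cyp26-E2-KO, against 37.0, 35.9 and 35.9 CPM in WT-Cyp26 cells. Its log2 fold changes, 0.66 and 0.69, exceeded the medians of 0.23 and 0.25 among genes within 10 Mb. Mdm2, Perp and Apaf1 also lie on chromosome 10, and medians of their own neighbours are not given here. Genes within 10 Mb of Sirt1, on the same chromosome, had medians of 0.14 in Cyp26-E1-KO and 0.17 in Cyp26-E2-KO cells. The part of such shared shifts in the rises of these members was not tested. Tigar was higher in both (0.34 and 0.32), and Ephx1 was lower in Cyp26-E1-KO cells (-0.71 ± 0.20, adjusted p = 0.0189) and did not pass in Cyp26-E2-KO cells. Among repair genes, Polk alone was called (0.30 in Cyp26-E1-KO cells, adjusted p = 0.0262). Gdf15 stood at 3.06, 1.55 and 4.22 CPM in Cyp26-E1-KO and 3.20, 3.46 and 3.01 CPM in Cyp26-E2-KO, against 5.51, 6.15 and 4.93 CPM in WT-Cyp26 cells. All its mutant libraries lay below the wild type, with a call in Cyp26-E1-KO (-0.91 ± 0.27, adjusted p = 0.0218) and none in Cyp26-E2-KO cells (-0.78, adjusted p = 0.0546). Without Cyp26-E1-KO replicate 2 it was called lower in both (-0.61, adjusted p = 0.0217, and -0.78, adjusted p = 0.00119).

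Compared with each other, Cyp26-E2-KO cells had lower Perp (log2 fold change -0.51 ± 0.11, adjusted p = 0.0217) and lower Polk (-0.34, adjusted p = 0.0462) than Cyp26-E1-KO cells. No member was higher, and 4.49% of all genes were called (2.02% higher and 2.46% lower). Without Cyp26-E1-KO replicate 2, 4 members were lower, namely Perp (-0.49), Polk (-0.36), Phlda3 (-0.37) and Aen (-0.21), and 9.94% of all genes were called. The difference in Cdkn1a, 0.47 in favour of Cyp26-E2-KO, did not pass (adjusted p = 0.0814).

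**Figure D4:**
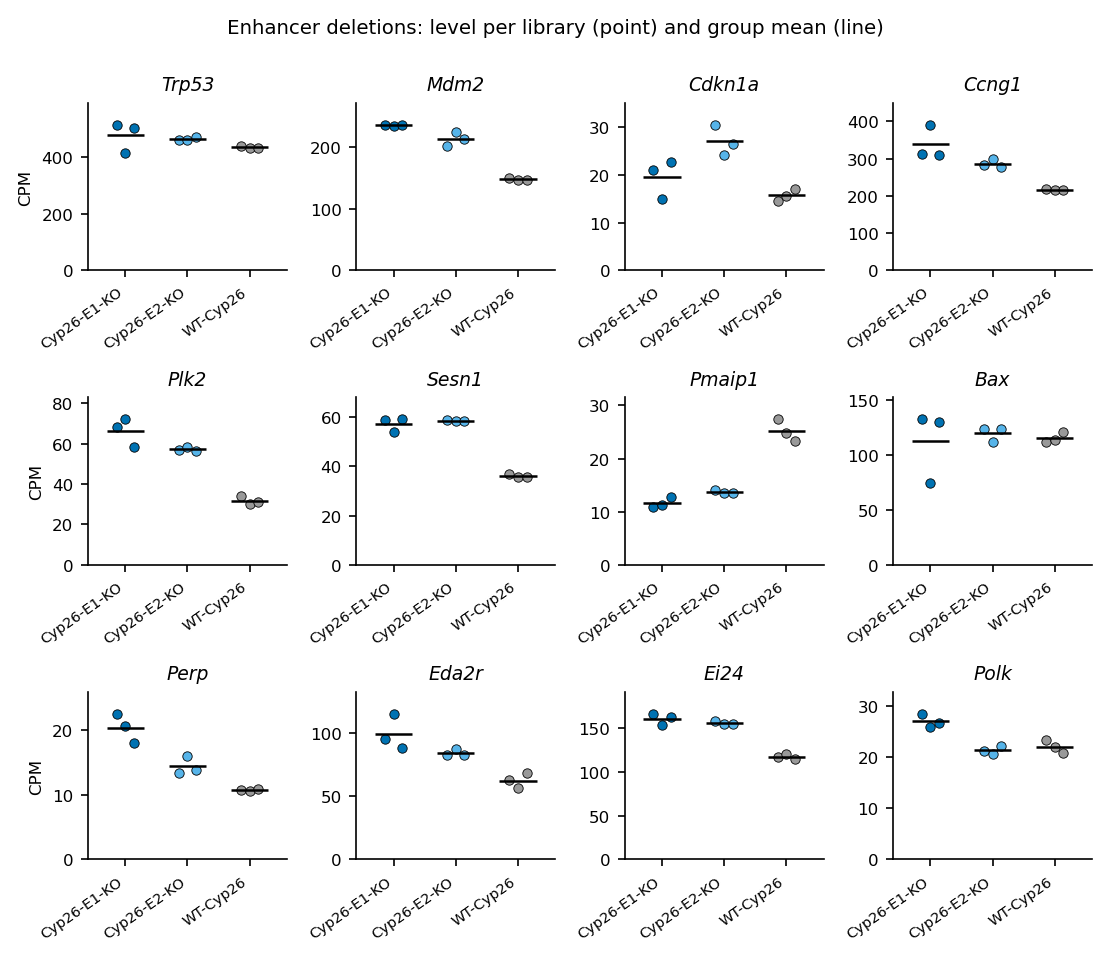
Levels (CPM, linear axis from 0) of 12 p53 target genes in the enhancer table, with a point per library and a line at the group mean (3 libraries a group). Mdm2, Ccng1, Plk2, Sesn1, Perp, Eda2r and Ei24 lie above WT-Cyp26 in every mutant library and Pmaip1 below it, and Cyp26-E1-KO replicate 2 (the middle point) is low for Trp53, Cdkn1a and Bax.

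The ESC markers summed to 3354 to 4196 CPM in Cyp26-E1-KO and 3528 to 3709 CPM in Cyp26-E2-KO, against 4069 to 4222 CPM in WT-Cyp26 cells. Of the 10, 2 were called higher and 4 lower in Cyp26-E1-KO cells, and 0 higher and 4 lower in Cyp26-E2-KO cells. Over all genes 13.1% were higher and 12.1% lower in Cyp26-E1-KO, and 9.28% and 8.2% in Cyp26-E2-KO cells. Extraembryonic endoderm markers summed to 1035 to 1078 CPM in Cyp26-E1-KO and 1120 to 1140 CPM in Cyp26-E2-KO, against 864 to 898 CPM in WT-Cyp26 cells. Of these, 6 of 12 were higher and 3 lower in Cyp26-E1-KO and 9 of 12 higher in Cyp26-E2-KO cells. These counts are to be read against the same shares of all genes. Markers of 2-cell-like cells had lower sums, at 64.1 to 93.4 CPM in Cyp26-E1-KO and 100 to 113 CPM in Cyp26-E2-KO, against 127 to 135 CPM in WT-Cyp26 cells. Of the 9 tested, 7 were called lower in Cyp26-E1-KO and 0 in Cyp26-E2-KO cells, against 12.1% and 8.2% of all genes. Trophoblast markers summed to 162 to 164 CPM in Cyp26-E1-KO and 125 to 142 CPM in Cyp26-E2-KO, against 102 to 110 CPM in WT-Cyp26 cells. The part of these cells in the differences of p53 targets was not tested.

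The overexpression and enhancer tables share no sample, so their calls can be set side by side. Of 31 members tested in both, 14 were called in both Rxrα-OE and Cyp26-E1-KO cells, which is 53.8% of the calls in Rxrα-OE and 87.5% of those in Cyp26-E1-KO. Over all genes tested in both, the same shares were 32.4% and 69.6%. Of these 14 members, 9 were higher in both (Phlda3, Trp53inp1, Ccng1, Sesn1, Aen, Polk, Plk2, Perp and Apaf1) and 2 lower in both (Pmaip1 and Gdf15). Ei24 and Tigar were lower in Rxrα-OE and higher in Cyp26-E1-KO cells, and Ephx1 was the reverse. The same direction held for 78.6% of these 14 members, against 51.9% of the 3044 genes called in both comparisons. For Rxrα-OE and Cyp26-E2-KO, 10 members were called in both, 7 higher, 1 lower and 2 lower in Rxrα-OE but higher in Cyp26-E2-KO cells, so that 80% had the same direction against 55.6% of all genes called in both. For Rarα-OE and Cyp26-E1-KO, 9 were called in both and 66.7% had the same direction, against 50.1% of all genes called in both. For Rarα-OE and Cyp26-E2-KO, 5 were called in both and 40% had the same direction, against 53.8% of all genes called in both. The knockout table shares no sample with the overexpression table either. For Rxrα-OE and RARX-DKO, 3 members were called in both and 33.3% had the same direction, against 16.2% of all genes called in both. For Rarα-OE and RARX-DKO, 2 were called in both and 0% had the same direction, against 9.32% of all genes called in both.

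**Figure D5:**
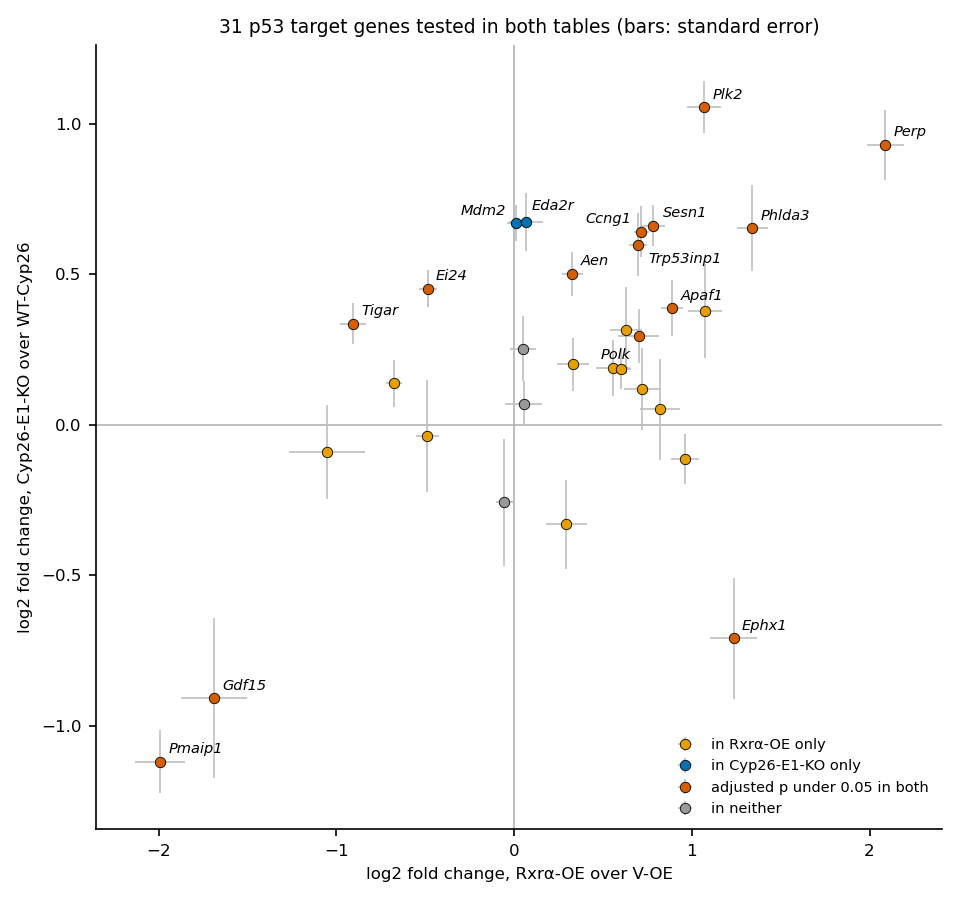
Log2 fold changes of the 31 members tested in both tables, Cyp26-E1-KO over WT-Cyp26 (vertical) against Rxrα-OE over V-OE (horizontal), with bars for the standard errors and colours for an adjusted p under 0.05 in both, in one or in neither comparison. Most points called in both lie in the upper right, Pmaip1 and Gdf15 lie in the lower left, and Mdm2 lies near 0 on the horizontal axis and at 0.67 on the vertical one.

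Across the 7 comparisons with a wild-type or vector control, Perp was called higher in 4 and lower in none. Pmaip1 was called lower in 4, the overexpression and enhancer comparisons, and higher in 1, that of RARX-DKO with WT-RARX. Ei24 was called higher in 3 and lower in 2, and Tigar higher in 2 and lower in 2. Rps27l and Tnfrsf10b were called in none of the 12 comparisons. In Rxrα-OE cells, members with and without a promoter decamer were called in both directions. Of the 10 with one 5 were higher and 3 lower, and of the 14 with a window and none 10 were higher and 2 lower, against 31% and 29.2% of all genes. Without Fas, which had to differ, 9 of 13 without a decamer were higher and 2 lower. In Cyp26-E1-KO cells, of the 10 with a decamer 6 were higher and 0 lower, and of the 13 tested without one 5 were higher and 2 lower, against 13.1% and 12.1% of all genes. For Cyp26-E2-KO cells the counts were 6 higher and 0 lower of the 10 with a decamer. Of the 13 tested without one, 3 were higher and 0 lower there, against 9.28% and 8.2% of all genes.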

How the data were processed

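Raw counts of reads per gene were deposited by the authors in 3 tables, and the submitters' processing notes name HISAT2 2.1.0, HTSeq 0.9.1, DESeq2 1.18.1 and the build mm10 without roles; strandedness is not given in the sources used here. Columns were matched to samples by title, except the mutant columns of the enhancer table, matched through the bait codes of the 4C tables, which is unsure. Of the enhancer table's identifiers, 52403 were matched to symbols and 233 were not. Genes were filtered with filterByExpr (minimum count 10), scaled by TMM within each table, and tested with edgeR 4.0.16 in R 4.3.3 (quasi-likelihood test, all groups of a table in 1 fit, Benjamini-Hochberg over all genes tested, adjusted p under 0.05). Fold changes are those of the edgeR fit, and a prior count of 2 was used for the log levels behind the correlations of replicate deviations. Standard errors were obtained by dividing the absolute log2 change by the root of its F statistic. The fit was tested on simulated data. DESeq2 1.42.0 was an alternative, with no filter, scaling by totals, fits of 2 groups, a replicate block and each library left out. The 32 members and all other gene lists were chosen with earlier results of these data known, so counts of members are descriptions. Trp53, Mdm2, Cdkn1a and every member that passed are named with values or by count, other lists with at most 4 passing genes per comparison. Exon bases come from an mm10 annotation, and promoter sequences are RefSeq's (GRCm38.p6). The other assays of the series were not analysed here.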

Additional observations from a re-analysis of the deposited data

How the results depend on the processing

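Calls in the knockout table were few and fragile, with 2 libraries a group. The number of members called in Rarα-KO against WT-RARX was 0, against 1 with DESeq2, 2 with no filter and 3 when only those 2 groups were fitted. In Rxrα-KO it was 0, against 2 with DESeq2 and 1 with no filter. In RARX-DKO against WT-RARX it was 3, and 0 to 2 with 1 library left out. For Rxrα-KO against Rarα-KO it was 3, against 1 with a replicate block, 2 with scaling by totals and 0 to 1 with 1 library left out; the block ended the calls of Trp53 (adjusted p = 0.0545) and Mdm2 (adjusted p = 0.0639). For RARX-DKO against Rxrα-KO it was 1, against 2 with DESeq2, 4 with no filter, 0 with 2 groups, 2 with the block and 0 to 2 with 1 library left out. In the overexpression table the ranges with 1 library left out were 11 to 15 for Rarα-OE, 26 to 27 for Rxrα-OE and 24 to 25 between them, and DESeq2 called 3 higher and 7 lower in Rarα-OE, 19 higher and 7 lower in Rxrα-OE, and 18 higher and 5 lower between them. In the enhancer table they were 14 to 23 for Cyp26-E1-KO, 10 to 11 for Cyp26-E2-KO against WT-Cyp26, and 0 to 4 between the deletions. All these ranges leave out only libraries of the 2 groups compared. Leaving out Cyp26-E1-KO replicate 2 raised the count for Cyp26-E2-KO against WT-Cyp26 to 19. Cyp26-E2-KO against WT-Cyp26 gave 19 calls when only those 2 groups were fitted, and Cyp26-E2-KO against Cyp26-E1-KO gave 1 with scaling by totals and 0 with 2 groups. Counts over all genes moved too: 106 in Rarα-KO against WT-RARX, against 271 with DESeq2, 551 with no filter and 588 with 2 groups; 407 in Rxrα-KO, against 654 with DESeq2 and 1084 with no filter; 368 in RARX-DKO, against 575 with DESeq2 and 981 with no filter. They were 885 for Rxrα-KO against Rarα-KO and 1840 with no filter, 575 for RARX-DKO against Rxrα-KO, 1366 with no filter and 30 with 2 groups, and 2 for RARX-DKO against Rarα-KO and 0 to 58 under these settings. For Rarα-OE they were 4827 and 2730 with DESeq2, for Cyp26-E2-KO against WT-Cyp26 3280 and 5731 with 2 groups, and between the deletions 842, 1332 with DESeq2, 1384 with no filter and 339 with 2 groups. The log2 fold change of Bax in Cyp26-E1-KO was -0.17 without replicate 1 and 0.19 without replicate 2 of that group. The causes of the other changes were not tested. Replicate numbers did not pair the samples (correlations of deviations -0.214 to 0.121 in the knockout table, -0.0142 to 0.00662 in the overexpression table and -0.0563 to 0.107 in the enhancer table). A crossed pairing of RARX-DKO with Rarα-KO, chosen after seeing the data, called 35 genes and 0 members. Fas, with few reads, is limited by depth.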

Other observations

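Genes around the p53 pathway also differed. Sirt1, a deacetylase that acts on p53, averaged 88.1 ± 2.1 CPM in Rarα-KO, 112 ± 2.6 CPM in Rxrα-KO and 124 ± 11 CPM in RARX-DKO, against 49.3 ± 6.3 CPM in WT-RARX cells (SD, n = 2 each). It was higher by 0.84 in Rarα-KO (adjusted p = 0.0232) and by 1.34 on the log2 scale in RARX-DKO cells (adjusted p = 0.000408, edgeR). The Rxrα-KO average lay between those of the other mutants, and its test result is not given here. Genes within 10 Mb of Sirt1 on chromosome 10 had medians of 0.65 in Rarα-KO, 0.49 in Rxrα-KO and 0.66 in RARX-DKO cells. In Rarα-OE it averaged 84.4 CPM and in Rxrα-OE 41.2 CPM, against 162 CPM in V-OE cells (log2 fold changes -0.94 and -1.98). It averaged 179 ± 11 CPM in Cyp26-E1-KO and 160 ± 3.4 CPM in Cyp26-E2-KO, against 121 ± 3.4 CPM in WT-Cyp26 cells (SD, n = 3 each). Of 24 p53 regulators, 9 of 22 tested were higher and 8 lower in Rxrα-OE cells, and 8 of 24 were higher and 4 lower in Cyp26-E1-KO cells. Over all genes 31% were higher and 29.2% lower in Rxrα-OE cells, and 13.1% higher and 12.1% lower in Cyp26-E1-KO cells. Cdkn2a, whose Arf product inhibits Mdm2, was higher in Rarα-OE (0.74), Rxrα-OE (0.80), Cyp26-E1-KO (0.71) and Cyp26-E2-KO cells (0.68). Counts per gene do not separate its transcripts, so whether Arf RNA was higher is not known.

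Of 20 other p53 targets, 12 were higher and 4 lower in Rxrα-OE cells, and 6 of 19 tested were higher and 3 lower in Cyp26-E1-KO cells, to be read against the same shares of all genes. Thbs1, an inhibitor of vessel growth, averaged 110 CPM in Cyp26-E1-KO and 59.9 CPM in Cyp26-E2-KO, against 19.1 CPM in WT-Cyp26 cells. Rprm, which restrains entry into mitosis, was lower in Rarα-OE (-1.82) and Rxrα-OE cells (-1.95) and higher in RARX-DKO cells (1.79). Of 20 cell division genes, 7 were higher and 7 lower in Rxrα-OE cells, a share near that of all genes. Of 17 cyclins and CDK inhibitors, 8 were higher and 8 lower in Rxrα-OE cells, against 31% and 29.2% of all genes. In Cyp26-E1-KO cells 4 were higher and 3 lower (13.1% and 12.1% of all genes), and in Cyp26-E2-KO cells 4 and 5 (9.28% and 8.2%). Among them Ccnd2, which encodes cyclin D2, was higher in Rxrα-OE cells (3.07) and lower in Cyp26-E1-KO (-1.70) and Cyp26-E2-KO cells (-0.70). Of 15 genes of the apoptosis machinery, 7 were higher and 4 lower in Rxrα-OE cells, against 31% and 29.2% of all genes. In RARX-DKO cells 0 were higher and 2 lower, against 1.05% and 1.19% of all genes. Among the 15, Bcl2l1, a survival factor, was higher in Rxrα-OE (1.40) and lower in RARX-DKO cells (-0.81).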
